A study of Mus musculus with 40 samples.

Results

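The vascular endothelial growth factor (VEGF) family was followed in the choroid and the retina of laser-treated mice. Its 10 genes were chosen by name, as the classical members of the family. They comprise 5 ligands, namely Vegfa, Vegfb, Vegfc, Vegfd and Pgf (placental growth factor), the 3 receptor tyrosine kinases Flt1 (VEGF receptor 1), Kdr (VEGF receptor 2) and Flt4 (VEGF receptor 3), and the 2 neuropilin co-receptors Nrp1 and Nrp2. These are 10 of the 54307 genes in the table, and all 10 passed the filter on low values, a mean of at least 1 normalized count, in both tissues.

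The choroid and the retina of 20 mice were sequenced separately as bulk tissue, which gave 40 libraries with 5 mice in each of 4 groups. All mice, controls included, carried 2 floxed Tgfbr2 alleles, were given tamoxifen eye drops on 5 days from an age of 6 to 7 weeks, and received 6 laser burns per eye, which break Bruch's membrane and start choroidal neovascularization. Tgfbr2ΔEC mice additionally carried Cdh5-CreERT2, a tamoxifen-inducible Cre under an endothelial promoter that removes the TGFβ type II receptor from endothelial cells, and control littermates lacked the Cre. The +PLX mice were fed PLX5622, an inhibitor of the CSF1 receptor that depletes microglia and other mononuclear phagocytes, from the first tamoxifen drop onwards, and the -PLX mice ate control food. Tissue was taken 3 days after the laser, only the central choroid with the lesions was used, both sexes were included, and no eye without laser burns is among the groups used here.

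As background, VEGF-A is released by epithelium, glia and other cells, most of all when oxygen is low, and acts on endothelial cells through VEGF receptor 2, which carries most of the signal for growth, survival and leakage. VEGF receptor 1 binds VEGF-A more tightly but signals weakly, so that it also works as a decoy, and it is the receptor of placental growth factor and VEGF-B. VEGF-C and VEGF-D act mainly through VEGF receptor 3, the receptor of lymphatic and sprouting endothelium, and neuropilins hold the ligand in the receptor complex besides being receptors for semaphorins. In the eye, VEGF-A from the retinal pigment epithelium maintains the choriocapillaris, and VEGF-A is the target of the drugs given for neovascular macular degeneration.

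In the mouse genome GRCm39, all 10 members are protein-coding genes. The ligands lie at chr17:46327919-46343309, minus strand (Vegfa), chr19:6958447-6965127, minus strand (Vegfb), chr8:54530257-54640131, plus strand (Vegfc), chrX:163156240-163185646, plus strand (Vegfd) and chr12:85213409-85224564, minus strand (Pgf). The receptors lie at chr5:147498414-147662826, minus strand (Flt1), chr5:76093487-76139884, minus strand (Kdr) and chr11:49500090-49543582, plus strand (Flt4), and the co-receptors at chr8:129085085-129231082, plus strand (Nrp1) and chr1:62742444-62857854, plus strand (Nrp2). Vegfb overlaps Trpt1 on the opposite strand. Nrp2 overlaps a long non-coding RNA gene on the opposite strand and an unclassified transcript annotation (TEC) on its own strand, and Nrp1 holds a microRNA gene on its own strand. The libraries were strand-specific, and reads in stretches shared on the same strand may have been divided between the partners.

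The 250 bases before the RefSeq start of 3 members are shown, because Vegfa and Flt1 were among the members that differed with the diet and Kdr was the receptor that did not pass the test between the tissues. They were taken from the RefSeq table on GRCm38.p6 and are read 5′ to 3′ on the strand of the gene. Capitals mark the GC box GGGCGG and the core of the ETS motif, GGAA, on either strand, and no GC box overlapped an ETS core in any of them.
Vegfa (chr17:46032378-46032627, minus strand): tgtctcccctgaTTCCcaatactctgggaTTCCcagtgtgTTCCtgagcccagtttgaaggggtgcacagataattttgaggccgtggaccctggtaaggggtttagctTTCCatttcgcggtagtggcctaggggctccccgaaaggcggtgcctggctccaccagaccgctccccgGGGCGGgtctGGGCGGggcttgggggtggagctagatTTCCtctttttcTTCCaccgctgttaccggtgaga
Flt1 (chr5:147726012-147726261, minus strand): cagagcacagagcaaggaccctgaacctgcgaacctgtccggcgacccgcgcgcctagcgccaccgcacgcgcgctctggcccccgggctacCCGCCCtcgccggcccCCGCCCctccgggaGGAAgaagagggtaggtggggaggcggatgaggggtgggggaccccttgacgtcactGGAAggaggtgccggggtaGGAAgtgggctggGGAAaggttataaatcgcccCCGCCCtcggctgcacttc
Kdr (chr5:75978456-75978705, minus strand): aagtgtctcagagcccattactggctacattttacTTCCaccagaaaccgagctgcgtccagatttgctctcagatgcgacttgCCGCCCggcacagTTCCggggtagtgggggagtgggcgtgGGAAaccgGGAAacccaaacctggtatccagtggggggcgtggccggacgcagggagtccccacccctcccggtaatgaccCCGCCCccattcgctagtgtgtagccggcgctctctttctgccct
The Vegfa stretch held 6 ETS cores and 2 GC boxes, that of Flt1 4 ETS cores, 3 GC boxes and 1 TATAAA, and that of Kdr 4 ETS cores and 2 GC boxes. Of these 3 stretches, 0 held ACGTG, the core of the hypoxia response element. All 10 members had an entry in the table, but the others are not described. For 4 of them (Vegfc, Vegfd, Pgf and Flt4) a GENCODE transcript starts upstream of the whole stretch. For Vegfb, Nrp1 and Nrp2 a GENCODE transcript has 108, 89 and 32 bases before the RefSeq start. Of 32851 promoters of the same length, 32.7% held a GC box, 93.4% an ETS core, 12.4% TATAAA and 16.6% ACGTG. The GC content was 59.2% for Vegfa, 70.4% for Flt1 and 61.6% for Kdr, against a median of 52.4% over those promoters. These matches describe letters in the reference and were not tested for binding.

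Per library, 21628873 to 28331348 reads in choroid and 20940404 to 30421581 in retina were estimated from the steps between low values. Tgfbr2, the deleted gene, lay between 8729 and 12801 normalized counts in the 20 choroids and between 66.4 and 293 in the retinas, with the genotypes overlapping on each diet in both tissues. Its whole-tissue level therefore does not check a deletion restricted to endothelial cells. The markers fitted the tissue labels, with all 10 photoreceptor markers lower and all 8 markers of the retinal pigment epithelium higher in choroid than in retina. Photoreceptor RNA was nevertheless present in the choroids and uneven between them, with a score (mean log2 of 10 markers) of 12.05 ± 0.68 (SD, n = 5) in Tgfbr2ΔEC -PLX against 9.66 ± 1.28, 9.77 ± 2.00 and 9.85 ± 0.63 in control -PLX, control +PLX and Tgfbr2ΔEC +PLX.

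Vegfa had the highest level per transcript length (mean length of the protein-coding transcripts) in both tissues. In choroid it reached 2635 ± 453 normalized counts per kilobase (mean ± SD, n = 20), and every choroid was above the highest value of Nrp2, at 1402 ± 139.5, which came next. With the longest transcript as length Vegfa still led in choroid, but its lowest choroid (1127) lay below the highest of Nrp2 (1394). The order then ran through Vegfb (1273 ± 172), Nrp1 (978 ± 135), Flt1 (876 ± 133), Kdr (666 ± 108) and Pgf (503 ± 147), and each of these neighbours overlapped. A gap without overlap separated Pgf from the 3 members of lowest level, Vegfc (193 ± 33.04), Flt4 (137 ± 23.97) and Vegfd (75.1 ± 24.6).

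In retina the order changed below Vegfa, which stood at 1685 ± 225 normalized counts per kilobase (n = 20). Kdr (612 ± 95.5), Vegfb (596 ± 143) and Flt1 (441 ± 63.01) followed, each overlapping the next. Nrp2 (111 ± 15.3) stood apart from its neighbours on both sides, and Nrp1 (48.97 ± 9.09), Vegfc (25.3 ± 6.40), Flt4 (22.2 ± 3.73), Pgf (13.9 ± 5.99) and Vegfd (6.84 ± 3.77) closed the order with overlapping neighbours. Vegfd was close to the limit of detection in retina, with 1.99 to 24.6 normalized counts against 2.24 to 3.38 for 3 reads.

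**Figure D1:**
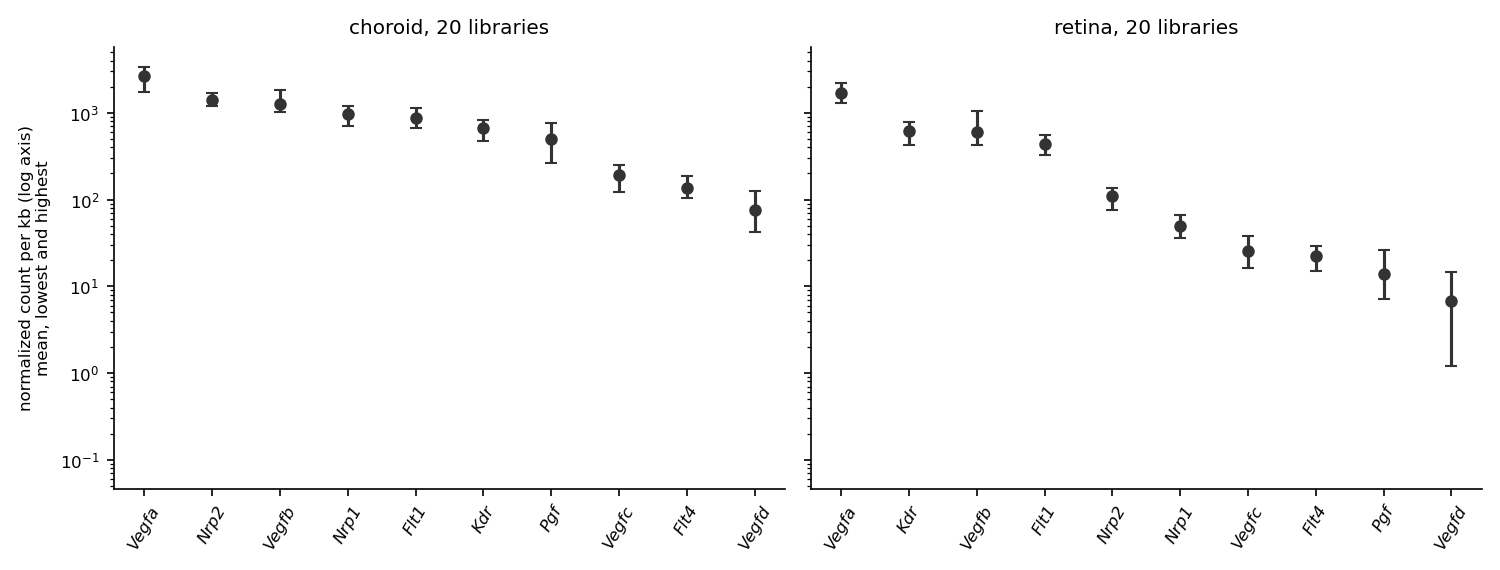
Normalized count per kilobase of transcript on a log axis for the 10 members in choroid (left) and retina (right), ordered by level. Points are means of 20 libraries and bars run from the lowest to the highest library. Vegfa leads in both tissues, Nrp1 and Nrp2 stand above Flt1 and Kdr in choroid and below them in retina.

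Most of the family was more abundant in choroid than in retina. Of the 10 members, 9 were higher in choroid and Kdr did not pass the test (limma, Benjamini-Hochberg). Of the 24317 genes tested, 82.0% differed between the tissues and 40.8% were higher in choroid. In bulk tissue, fewer cells of a type and less RNA per cell cannot be told apart. Folds in the text are on the log2(normalized count + 1) scale and understate changes of low values.

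Among the ligands, Pgf differed most, from 28.7 ± 12.4 normalized counts in retina to 1041 ± 304 (SD, n = 20) in choroid, a fold of 36.3. Within a mouse this fold ran from 13.2 to 89.6. The ligands of VEGF receptor 3 were likewise mainly choroidal, Vegfd with 10.99 times and Vegfc with 7.60 times the retinal level. Vegfb, with a fold of 2.17, and Vegfa, with a fold of 1.55, differed less, although the choroid was above the retina of the same mouse in 20 of 20 mice for each of the 5 ligands. For Vegfa the ranges of the tissues overlapped, since the choroids spanned 3986 to 7757 normalized counts and the retinas 2999 to 5018.

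The receptors fell into a graded series. Flt4 was 6.10 times higher in choroid (649.8 to 1178 against 95.1 to 181 normalized counts), and Flt1 1.99 times (3592 to 6148 against 1763 to 2982), in both cases without overlap of the tissues. For 18.6% of all genes tested, all 20 choroids lay above all 20 retinas, as they did for 7 members (Vegfc, Vegfd, Pgf, Flt1, Flt4, Nrp1 and Nrp2). Kdr, the main signalling receptor, had 3971 ± 645 (SD, n = 20) normalized counts in choroid and 3647 ± 569.8 (SD, n = 20) in retina, with the choroid higher in 12 of 20 mice. Its log2 difference was 0.12 ± 0.07 (SE), adjusted p = 0.111. With libraries set to equal totals, which moved the median of all genes to -0.12, it was -0.002.

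Kdr was also the one member whose group means of the tissues interleaved. In Tgfbr2ΔEC +PLX mice the 5 choroids (4048, 4936, 4806, 4600.4 and 4665 normalized counts) lay above the 5 retinas (3849.5, 3712, 3699, 3525 and 2513). The log2 difference there was 0.43 ± 0.14 (SE), adjusted p = 0.00769. In control -PLX mice the choroids (2789, 3383, 4148, 3789 and 3004) and the retinas (3957, 3844, 3521, 3325 and 4118) overlapped, with a log2 difference of -0.14 ± 0.14 (SE), adjusted p = 0.376. Tested within mice, the difference between the tissues did not pass for the diet (0.30 ± 0.16 (SE), adjusted p = 0.587, limma). Nor did it for the genotype (0.27 ± 0.16 (SE), unadjusted p = 0.112, limma), so a dependence of Kdr on the group is not shown. The other members were called in each of the 4 groups, against 66.8%, 65.8%, 66.6% and 66.9% of all genes tested in control -PLX, Tgfbr2ΔEC -PLX, control +PLX and Tgfbr2ΔEC +PLX mice.

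The co-receptors followed the choroid most closely of the receptor genes. Nrp1, which pairs with VEGF receptor 2, rose from 211 ± 39.2 normalized counts in retina to 4221 ± 582 in choroid, a fold of 20.01, and Nrp2, which pairs with VEGF receptor 3, from 628 ± 86.7 to 7955 ± 792, a fold of 12.7 (n = 20 each). All 12 endothelial markers, which stand for the vessels themselves, were also higher in choroid, with a median fold of 15.1 and log2 differences from 1.92 (Esam) to 6.98 (Emcn). The log2 differences of 4 members, Vegfa, Vegfb, Flt1 and Kdr, lay below the lowest of these markers, so that the mean ratio of Flt1 or Kdr to any of these markers was higher in retina. Markers of fibroblasts (5 of 5) and of pericytes and smooth muscle (8 of 8) were also higher in choroid. Skeletal muscle scored 13.37 ± 0.84 in -PLX choroids and 2.53 ± 0.52 in -PLX retinas (mean ± SD, n = 10). Melanocytes scored 14.75 ± 0.16 and 6.23 ± 0.90 there. The muscle score was uneven between choroids, from 12.12 to 14.43 without and from 11.37 to 14.48 with PLX5622. The part of any cell type in the differences of the members was not tested.

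**Figure D2:**
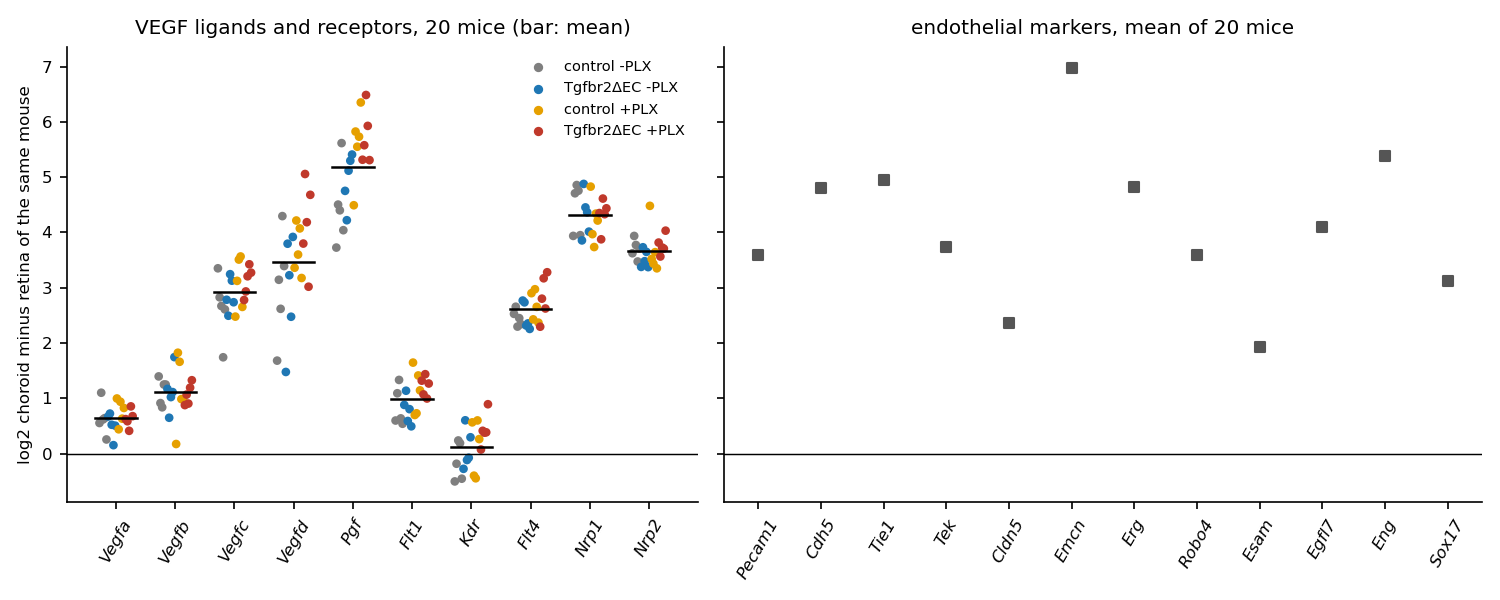
Log2 difference between choroid and retina of the same mouse for the 10 members (left, 1 point per mouse in the colour of its group, bar at the mean) and, as means of 20 mice, for 12 endothelial markers (right). Points for Kdr scatter on both sides of 0, Vegfa, Vegfb and Flt1 lie below the markers, and Pgf reaches a mean of 5.18.

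Depletion of mononuclear phagocytes was accompanied by more RNA of several members in the choroid. Averaged over the genotypes, 4 of 10 members were higher in +PLX choroids, the ligands Vegfa and Pgf and the receptors Flt1 and Flt4, and 0 were lower (limma, adjusted p at or under 0.05). Of the 23619 genes tested, 7.13% were called in this comparison, 2.07% as higher and 5.06% as lower. The median log2 difference of the members was 0.29, against 0.001 over all genes tested, and 9 of 10 were above 0. The depletion itself was seen in 15 of 16 phagocyte markers, whose score fell by 2.20 on the log2 scale (exact permutation p = 3.15e-05). An unadjusted p under 0.05 was found for 8 of 10 members in limma, against 19.3% of all genes, and for 7 of 10 in the exact permutation test. The exact permutation test was not run on all genes, so its counts have no such share beside them.

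**Figure D3:**
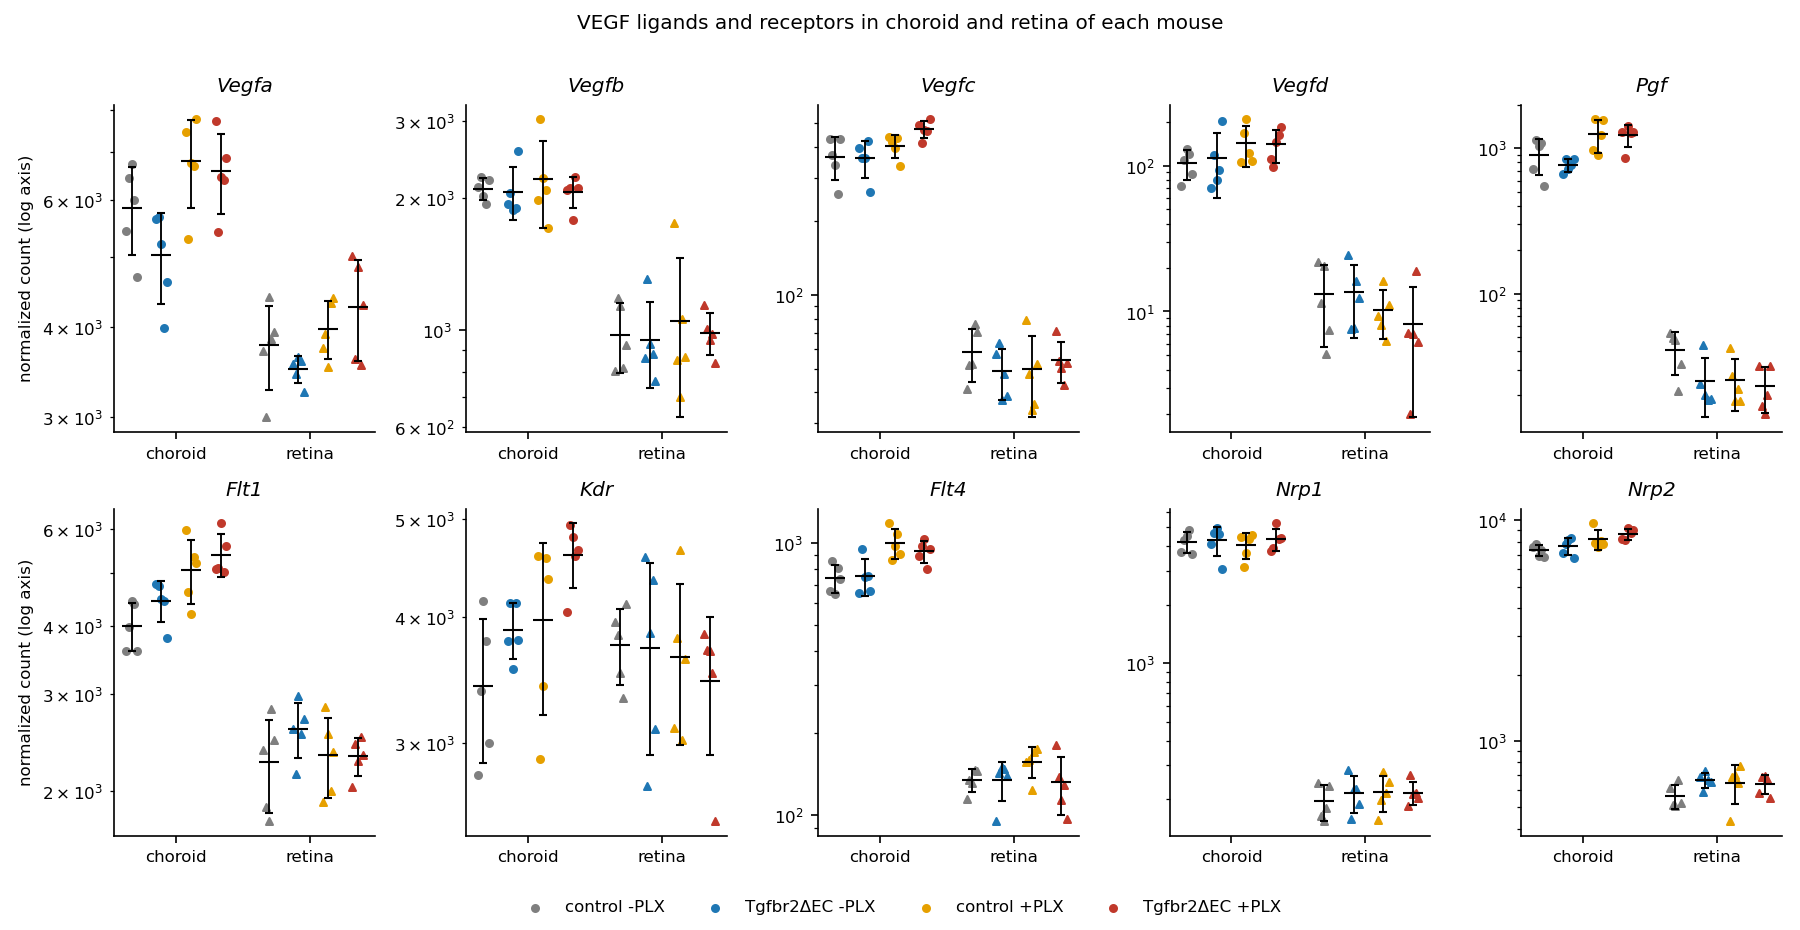
Normalized counts of the 10 members on log axes, 1 panel per gene, for choroid (circles) and retina (triangles). Each point is a mouse, colours give the group, and black bars are the group mean ± SD (n = 5). In choroid, the group means of Pgf, Flt1 and Flt4 are higher with PLX5622, but the values of the diets overlap when the genotypes are combined. In retina the 4 groups overlap as well.

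Pgf changed most among the called members. In choroid it stood at 726, 1140.1, 1031, 1088 and 553 normalized counts in the control -PLX mice and at 666, 847, 724, 772 and 843 in the Tgfbr2ΔEC -PLX mice. The control +PLX mice had 976, 1581, 896, 1232 and 1575, and the Tgfbr2ΔEC +PLX mice 1297, 857, 1424, 1283 and 1301. All 10 +PLX choroids lay above the -PLX median and 7 above the highest -PLX value. The means were 839 ± 192 (SD, n = 10) and 1242 ± 259.5 (SD, n = 10), a log2 difference of 0.57 ± 0.14 (SE), adjusted p = 0.0125.

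Vegfa, the ligand of highest level, had 5428, 6430.3, 6735, 5996 and 4692 normalized counts in control -PLX choroids and 5651, 5686, 5215, 3986 and 4614 in Tgfbr2ΔEC -PLX choroids. With PLX5622 the values were 7463, 5304, 6744, 6677 and 7757 in control and 7727, 5419.8, 6449, 6405 and 6866 in Tgfbr2ΔEC mice. The diets overlapped, with 5 of 10 +PLX choroids above the highest -PLX one. The log2 difference was 0.30 ± 0.089 (SE), a fold of 1.23, with adjusted p = 0.0426. This call was narrow: over the 20 fits that left out 1 mouse the adjusted p ran from 0.0109 to 0.0855, and the call was lost in 14 of them (without mouse 1, 4, 5, 8, 9, 10, 11, 13, 14, 15, 16, 18, 19 or 20). It was also lost with the photoreceptor score as a covariate (log2 difference 0.27, adjusted p = 0.135), while over the fits without 1 mouse the log2 difference stayed between 0.26 and 0.34.

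The remaining ligands did not pass the test. Vegfc had 364 ± 63.6 normalized counts without and 439.5 ± 52.4 (SD, n = 10) with PLX5622, a log2 difference of 0.28 ± 0.10 (SE), adjusted p = 0.112. Vegfd, at 108 ± 39.1 and 141 ± 37.5 (SD, n = 10), gave 0.40 ± 0.19 (SE), adjusted p = 0.257. Vegfb, which is more tied to lipid handling and cell survival than to growth of vessels, was at 2082 ± 207 and 2132 ± 356 (SD, n = 10), with a log2 difference of 0.02 ± 0.084 (SE).

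Both Flt1, the decoy-like receptor, and Flt4, the receptor of VEGF-C and VEGF-D, were higher with PLX5622. Flt1 stood at 3601, 3988, 4439, 4379 and 3592 normalized counts in control -PLX and at 4767, 4728, 4486, 4432 and 3804 in Tgfbr2ΔEC -PLX choroids. In the +PLX choroids it reached 5969, 4614, 4208, 5329 and 5197 in control and 5079, 5108, 6148, 5009 and 5591 in Tgfbr2ΔEC mice. Of the 10 +PLX choroids, 8 exceeded the highest -PLX value, and the log2 difference was 0.31 ± 0.069 (SE), a fold of 1.24, adjusted p = 0.00637 (exact permutation p = 0.000157).

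Flt4 had 666, 854, 649.8, 806 and 736 normalized counts in control -PLX and 653, 951, 749, 757 and 668 in Tgfbr2ΔEC -PLX choroids. It had 1178, 864, 976, 1074 and 908 in control +PLX and 893, 971, 1033, 799 and 951 in Tgfbr2ΔEC +PLX choroids. All 10 +PLX choroids were above the -PLX median of 743, and 5 were above the highest -PLX value. The log2 difference was 0.37 ± 0.081 (SE), a fold of 1.29, adjusted p = 0.00564 (exact permutation p = 0.000441). The calls of Pgf, Flt1 and Flt4 were kept in all 20 fits that left out 1 mouse.

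Kdr and the co-receptors stayed below the threshold. Kdr had means of 3652 ± 472 and 4290.4 ± 656 (SD, n = 10) normalized counts, with 7 of 10 +PLX choroids above the highest -PLX one and a log2 difference of 0.23 ± 0.087 (SE), adjusted p = 0.141. Without mouse 12, a control +PLX mouse, its adjusted p was 0.0225. Nrp2 gave 0.18 ± 0.056 (SE), adjusted p = 0.0642, close to the threshold and on the other side of it with a minimum mean of 10 (adjusted p = 0.0462) and without mouse 12 (adjusted p = 0.0489) or 13 (adjusted p = 0.0496). Nrp1 had 4253 ± 614 and 4189.7 ± 580.5 (SD, n = 10) normalized counts, a log2 difference of -0.02 ± 0.095 (SE).

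Markers of other cell types moved with the diet as well. Of the 12 endothelial markers, 8 were higher in +PLX choroids and 0 were lower, with log2 differences from 0.11 to 0.59 and a median of 0.27, close to the 0.29 of the members. The endothelial score (mean log2 of the 12 markers, none of them at 0) ranged from 10.85 to 11.20 in -PLX and from 11.05 to 11.34 in +PLX choroids, a difference of 0.28 (two-sided exact permutation p = 9.45e-05). The score of 8 pericyte and smooth muscle markers differed by 0.25 (exact permutation p = 0.000819), from 11.59 to 12.10 without and 11.96 to 12.29 with PLX5622, and that of 5 fibroblast markers by 0.24 (exact permutation p = 0.00085), from 15.4 to 15.8 and 15.6 to 16.1. The difference was -1.01 for inner retina neurons (exact permutation p = 0.0256) and -1.04 for photoreceptors (exact permutation p = 0.11). The score of 6 markers listed for lymphatic endothelium, the cells best known for Flt4, differed by -0.55 (exact permutation p = 0.0228). Of these, 1 was called, Lyve1 (log2 difference -2.46), which macrophages also express, and Prox1 and Reln were retinal genes here (4761 and 3943 normalized counts in retina, 158 and 559 in choroid), so that the score does not follow lymphatic endothelium in these choroids. The part of pericytes, fibroblasts and retinal cells in the differences of the members was not tested beyond the fits named here.

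Relative to the endothelial score of the same choroid, the difference between the diets was small for 3 of the called members. It was 0.02 for Vegfa (exact permutation p = 0.877), 0.02 for Flt1 (exact permutation p = 0.705) and 0.08 for Flt4 (exact permutation p = 0.258) on the log2 scale. For Pgf it was 0.29 (exact permutation p = 0.0767), against 0.57 without the score, with 0.15 in control mice (exact permutation p = 0.595) and 0.42 in Tgfbr2ΔEC mice (exact permutation p = 0.0317). Relative to the score, the difference was -0.30 for Nrp1 (exact permutation p = 0.00872) and -0.26 for Vegfb (exact permutation p = 0.0173). The p-values of this family of 10 members are unadjusted. Subtracting the score takes its own diet difference of 0.28 off every member, whether or not the member follows the score. After subtraction of the group means, the Pearson correlation with the score was -0.25 for Vegfa, 0.09 for Pgf and 0.40 for Flt1 and for Flt4. The small value of Vegfa therefore does not show that it follows the endothelial markers. With the score as a covariate, 0 of 10 members passed (limma), and the log2 differences of the 4 were 0.45 for Vegfa (adjusted p = 0.298), 0.48 for Pgf (adjusted p = 0.641), 0.14 for Flt1 (adjusted p = 0.859) and 0.17 for Flt4 (adjusted p = 0.847). The score and the diet nearly coincided, so that the 2 cannot be told apart as sources of the difference.

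**Figure D4:**
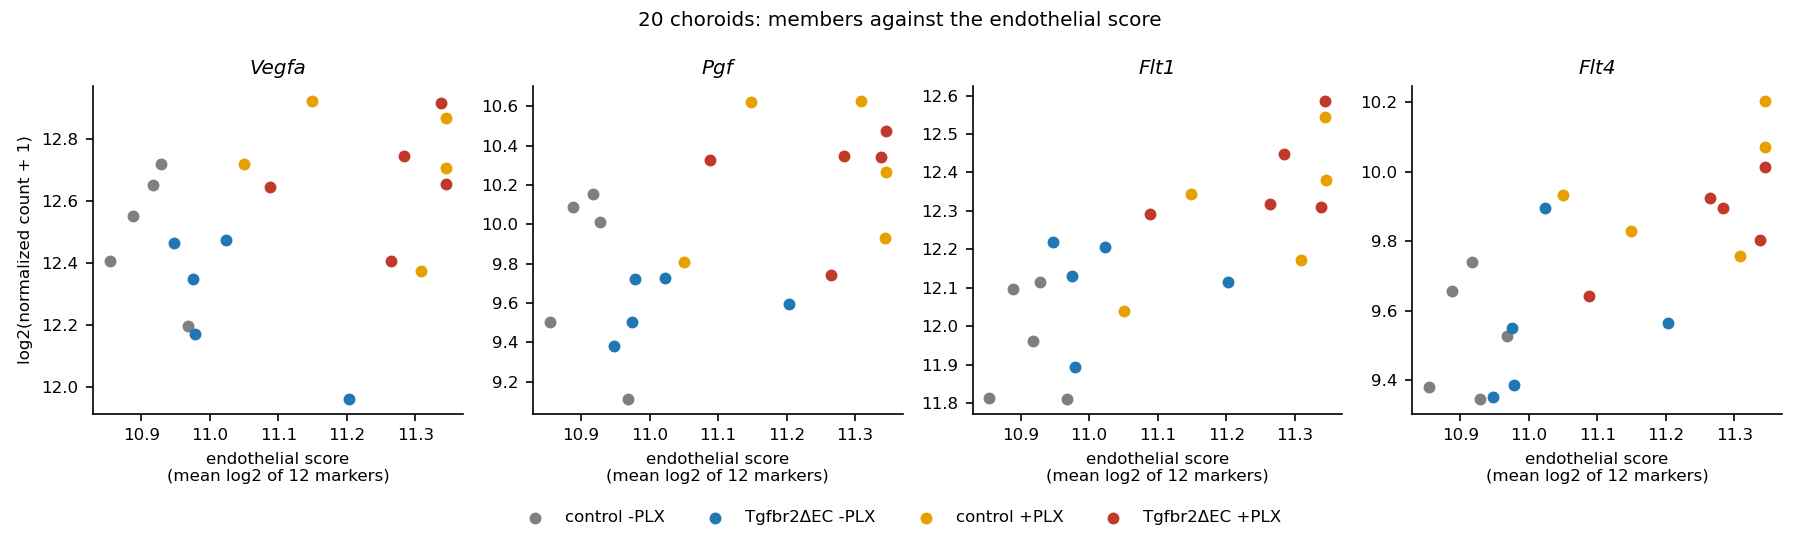
Log2(normalized count + 1) of Vegfa, Pgf, Flt1 and Flt4 against the endothelial score, the mean log2 of 12 endothelial markers, in the 20 choroids, coloured by group. The -PLX choroids lie mostly to the left, at scores of 10.85 to 11.20, and the +PLX choroids mostly to the right, at 11.05 to 11.34, and the diets overlap between them.

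Within each genotype fewer members passed. In control mice Flt4 was called, with a log2 difference of 0.43 ± 0.12 (SE), adjusted p = 0.039, and its 5 +PLX values did not overlap the 5 -PLX values. Of all genes tested, 3.75% were called there and 0.936% were higher without overlap. The Flt4 call was lost in 7 of 20 fits that left out 1 mouse (without mouse 1, 3, 5, 11, 13, 14 or 16, adjusted p from 0.0501 to 0.128). It was also lost with the endothelial score as a covariate. That score differed by 0.33 between the diets in control mice (exact permutation p = 0.00794), and relative to it the Flt4 difference was 0.10 (exact permutation p = 0.381). An unadjusted p under 0.05 was found for 3 of 10 members in limma, against 13.8% of all genes, and for 3 in the exact permutation test. In Tgfbr2ΔEC mice 0 of 10 members passed in limma, against 4.06% of all genes, while 6 had an unadjusted p under 0.05, against 15.4% of all genes, and 7 in the exact permutation test. No share over all genes is available for the counts from the exact permutation test. Pgf (0.66 ± 0.20 (SE), adjusted p = 0.0649) and Flt1 (0.28 ± 0.098 (SE), adjusted p = 0.13) did not overlap between the diets there, a pattern shown by 1.36% of all genes in the same direction. Pgf passed there without mouse 5, 15 or 17 (adjusted p of 0.0331, 0.0462 and 0.0284). The photoreceptor score differed between these 2 groups by -2.19 (exact permutation p = 0.00794). With that score as a covariate 0 of 10 members passed in limma, with log2 differences of 0.78 for Pgf (adjusted p = 0.125) and 0.25 for Flt1 (adjusted p = 0.516).

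A difference between the genotypes in the effect of the diet was not detectable for any member. In the interaction test (limma) 0 of 10 members passed, 0.0% of all genes were called, and 0 of 10 members had an unadjusted p under 0.05 in limma or in the exact permutation test, which is near the 6.57% of all genes with such a p in limma. The interaction estimates ran from -0.12 (Flt4) to 0.24 (Vegfc) on the log2 scale, with SE from 0.11 to 0.38.

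In retina, 0 of 10 members passed the test between the diets (limma), against 1.09% of all 23243 genes tested, and 0 of 10 in control mice (0.736% of all genes) and in Tgfbr2ΔEC mice (0.516%), although the phagocyte score fell there by 5.05 on the log2 scale. Vegfa, at 3635 ± 382 without and 4119 ± 538 (SD, n = 10) normalized counts with PLX5622, was the one member with an unadjusted p under 0.05 (log2 difference 0.18 ± 0.079 (SE), exact permutation p = 0.0388, adjusted p = 0.709 in limma), 1 of 10 against 6.28% of all genes. Pgf, which was higher with PLX5622 in choroid, had 33.1 ± 14.4 and 24.4 ± 8.72 (SD, n = 10) normalized counts in retina. Flt1 had 2427 ± 395 and 2323 ± 285 (SD, n = 10), and Flt4 135 ± 17.3 and 144 ± 28.3 (SD, n = 10). The retinal endothelial score differed by -0.19 (exact permutation p = 0.0856).

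Vegfa showed no separation of the 4 retinal groups. It stood at 3700.1, 2999, 4394, 3847 and 3933 normalized counts in control -PLX and at 3553, 3445, 3635, 3588 and 3252 in Tgfbr2ΔEC -PLX retinas. In the +PLX retinas it was 3742, 3914, 3522, 4311 and 4380.2 in control and 5018, 3614, 4850.5, 3546 and 4296 in Tgfbr2ΔEC mice. Flt4 divided the +PLX retinas themselves, since 5 of 10 lay above the highest -PLX retina and the other 5 at or below the -PLX median of 141. The higher ones were 157, 160, 170 and 175 in control and 181 in Tgfbr2ΔEC mice. The lower ones were 124 in control and 138, 114, 129 and 97.1 in Tgfbr2ΔEC mice. Between the genotypes with PLX5622, the exact permutation p was 0.159. The co-receptors had overlapping diets as well, with 154 to 284 and 156 to 277 normalized counts for Nrp1 and 506 to 733 and 433 to 769 for Nrp2, without and with PLX5622. Kdr ranged from 2722 to 4591 and from 2513 to 4666.

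The difference between the tissues in the effect of the diet was tested within mice. It was 0.95 ± 0.26 (SE) on the log2 scale for Pgf, with adjusted p = 0.1, and 0.36 ± 0.14 for Flt1, with adjusted p = 0.327 (limma). Of the 10 members 0 passed, against 1.1% of all genes, and 3 of 10 had an unadjusted p under 0.05, against 9.9% of all genes. For the effect of genotype 0 of 10 passed, against 0.00411% of all genes, and 0 of 10 had such a p, against 4.33% of all genes. The effect of PLX5622 is therefore not shown to be restricted to the choroid for any member.

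**Figure D5:**
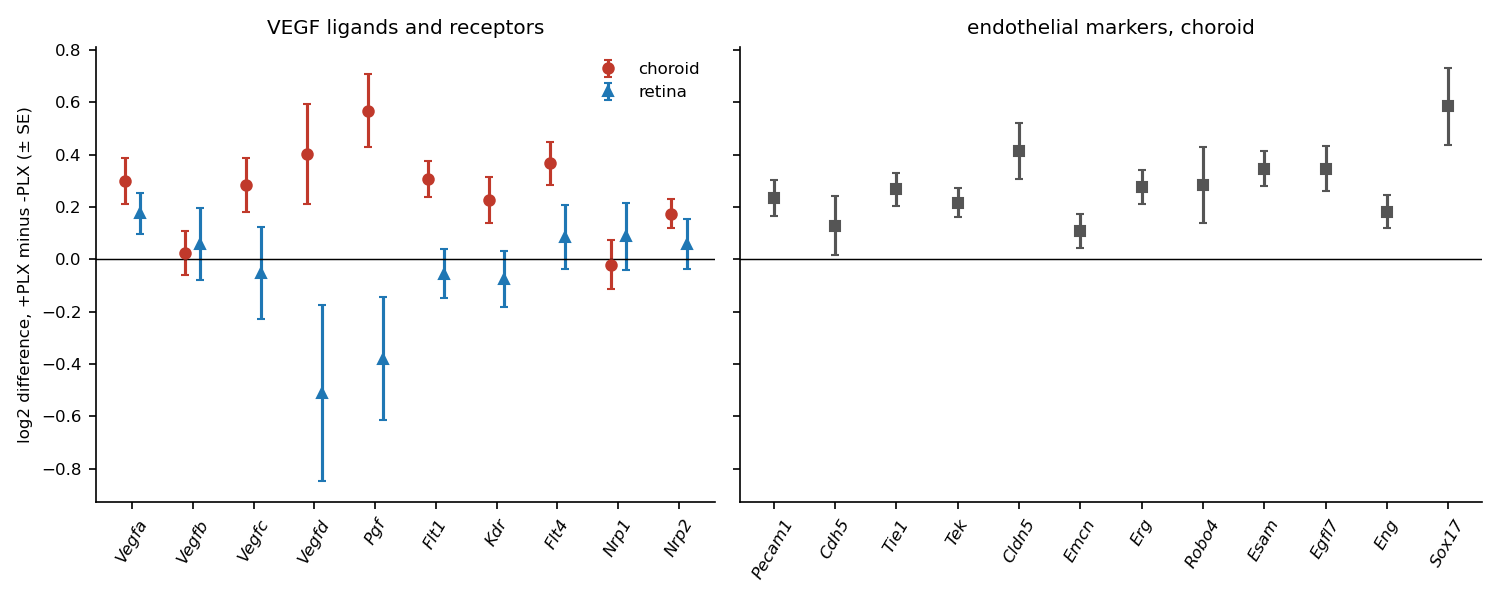
Log2 difference between +PLX and -PLX mice, averaged over the genotypes, with SE bars, for the 10 members in choroid (circles) and retina (triangles) on the left and for 12 endothelial markers in choroid on the right. In choroid the members reach 0.57 (Pgf), with Vegfb and Nrp1 near 0, and the markers lie between 0.11 and 0.59.

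The comparison of Tgfbr2ΔEC with control mice, which asked whether loss of endothelial TGFβ signaling changes the family, gave 0 of 10 called members in either tissue and on either diet (limma). The background was equally low, with 0.00423% of all genes called in choroid on each diet, 0.00847% averaged over the diets and 0.0% in retina. In limma and in the exact permutation test, 0 members had an unadjusted p under 0.05 in any genotype comparison in retina, or in choroid without PLX5622. Of all genes, 3.26% in retina without PLX5622, 2.71% with it and 3.78% averaged over the diets had such a p in limma, and 9.25% in choroid without PLX5622, so that 0 of 10 is near the background. Kdr had 3790.1, 4129, 3557, 4133 and 3800.0 normalized counts in Tgfbr2ΔEC -PLX choroids and 4596, 2892, 3421, 4577 and 4361 in control +PLX choroids, and both sets overlapped the values of the other genotype on the same diet. Averaged over the diets its log2 difference was 0.22 ± 0.087 (SE) with an unadjusted exact permutation p = 0.0248 and adjusted p = 0.752 in limma. It was the one member with an unadjusted p under 0.05 in that average, 1 of 10 against 6.6% of all genes. With PLX5622 Vegfc had such a p in the exact permutation test (0.0317) and 0 members had one in limma, against 3.76% of all genes in limma.

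For Vegfa the control -PLX and Tgfbr2ΔEC -PLX means were 5856 ± 816 and 5030.4 ± 727 (SD, n = 5) normalized counts, a log2 difference of -0.22 ± 0.13 (SE), adjusted p = 0.666. For Flt1 they were 3999.9 ± 407 and 4443 ± 386 (SD, n = 5), with 0.15 ± 0.098 (SE), adjusted p = 0.722. The photoreceptor score of the choroids differed between these same groups by 2.39 (exact permutation p = 0.00794, the smallest this design allows). The scores of inner retina neurons (1.38, exact permutation p = 0.0159) and endothelium (0.11, exact permutation p = 0.0159) differed in the same direction. So did that of the lymphatic list with its retinal genes Prox1 and Reln (0.98, exact permutation p = 0.00794, and 0.72 averaged over the diets, exact permutation p = 0.00589). With the photoreceptor score as a covariate 0 of 10 members passed in limma, with log2 differences of -0.16 for Vegfa (adjusted p = 0.999) and 0.18 for Flt1 (adjusted p = 0.999). With the endothelial score as a covariate 0 of 10 passed as well, with -0.16 for Vegfa (adjusted p = 0.89) and 0.08 for Flt1 (adjusted p = 0.935). The part of the other scores was not tested. In retina, the log2 difference furthest from 0 between the genotypes, averaged over the diets, was that of Pgf, -0.41 ± 0.24 (SE), adjusted p = 0.928.

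Other genes of the pathway were counted in the same choroidal comparison of the diets, as 7 lists with 113 genes, against 2.07% of all genes higher and 5.06% lower. Of the co-receptor and semaphorin list, 2 of 17 were higher and 0 lower: Sema3a, a ligand of Nrp1, went from 469 ± 59.98 to 689.5 ± 123 (adjusted p = 0.00113), and Sema3g, an endothelial semaphorin, from 1337 ± 308 to 1962 ± 287 (adjusted p = 0.00145) normalized counts (mean ± SD, n = 10). Of the inhibitors, 4 of 13 were higher and 2 lower, among them the matrix protein Thbs2, from 14545 ± 1590.4 to 18587 ± 1736 (adjusted p = 0.00173), and the feedback inhibitor Spry4, from 862 ± 135 to 1085 ± 113 (adjusted p = 0.0107). The inhibitors that were lower were Pf4, a chemokine of platelets and macrophages, from 565 ± 99.7 to 60.4 ± 43.1 (adjusted p = 5.61e-09), and the scavenger receptor Cd36, from 3228 ± 587 to 1158 ± 228 (adjusted p = 1.14e-08). The median log2 difference was 0.16 for the co-receptor list and 0.20 for the inhibitors, against 0.001 over all genes.

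The enzymes that cleave or release the ligands had 0 of 11 higher and 2 lower, namely the urokinase Plau, from 1379 ± 193 to 521 ± 92.8 (adjusted p = 3.45e-09), and the gelatinase Mmp9, from 634 ± 151 to 446 ± 129 (adjusted p = 0.0463). Of the endothelial response list, 0 of 19 were higher and 2 lower, Lyve1, from 299.6 ± 120.0 to 52.5 ± 18.5 (adjusted p = 1.14e-07), and Cxcr4, from 794 ± 123 to 468 ± 122 (adjusted p = 0.000349). Signalling proteins had 1 of 24 higher, the endothelial nitric oxide synthase Nos3, from 1107 ± 149.8 to 1385 ± 229 (adjusted p = 0.0397), and 1 lower, Vav3, from 312 ± 44.8 to 156 ± 20.6 (adjusted p = 5.58e-08). Receptor phosphatases and adaptors had 0 of 14 higher and 2 lower, the adaptor Dab2, from 5579.6 ± 526 to 3371 ± 435 (adjusted p = 3.55e-07), and the phosphatase Ptpn1, from 2540.3 ± 294 to 2085 ± 268 (adjusted p = 0.0314).

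Of the oxygen-sensing list, 2 of 14 were higher and 1 lower. Hif3a, a hypoxia-inducible factor subunit, went from 127 ± 67.6 to 292 ± 134 (adjusted p = 0.00934), the glucose transporter Slc2a1 from 13022 ± 2159 to 16168 ± 2162 (adjusted p = 0.0277), and Car9, a carbonic anhydrase induced by low oxygen, from 29.1 ± 13.8 to 9.65 ± 8.37 (adjusted p = 0.0107) normalized counts. Plau, Mmp9, Pf4, Cd36, Lyve1 and Cxcr4 are also expressed by macrophages, whose marker score moved as given above, and its part in these differences was not tested. The part of the phagocytes in the lower values of Dab2, Vav3 and Ptpn1 was not tested either. The oxygen-sensing list held genes in both directions, with a median log2 difference of 0.075. In retina, where 1.09% of all genes were called, the same 7 lists held 0 higher and 2 lower genes. Plau went from 29.9 ± 15.2 to 4.89 ± 2.4 normalized counts (SD, n = 10). Pf4 went from 2.69 ± 2.26 to 0.0, and as both values are at or under the level of 3 reads (2.24 to 3.38 normalized counts), no fold is given for it.

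Among the 20 choroids, the 10 pairs of receptor and co-receptor genes had Pearson correlations of log2 values from 0.26 (Flt4 with Nrp1) to 0.81 (Flt1 with Kdr). After subtraction of the group means they ran from 0.25 (Kdr with Nrp2) to 0.80 (Flt1 with Nrp1). Flt1 with Kdr was then at 0.71, and Flt4 with Nrp1 at 0.51. Vegfb ran opposite to Nrp1, with -0.83, and -0.82 within groups. These values describe 20 libraries that share their group, scaling and tissue makeup, and no test was made of them.

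The genes most like each member over the 20 choroids, among 17597 genes, differed by member. For Flt1 they were Rgs5, a pericyte marker (Pearson r = 0.91), Snrk (0.89) and Pde3a (0.86). For Pgf they were Ptgis, the prostacyclin synthase (0.91), Boc (0.89) and Col12a1, a fibrillar-associated collagen (0.86), and for Vegfa Nqo1, an oxidoreductase of the stress response (0.93), Rab37 (0.89) and Slc5a5 (0.87). Kdr was closest to Prpf39 (0.91), Ogt (0.90) and Kat6b (0.89), and Flt4 to Snx33 (0.87), Ptpn14 (0.85) and Parva (0.83). For the other 5 members the highest r lay between 0.82 (Vegfc with Yes1) and 0.92 (Vegfb with Xab2).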

How the data were processed

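RNA of choroid and retina from 20 mice (5 per group and tissue) was sequenced from poly(A)-selected, strand-specific libraries. The authors quantified reads with Salmon 1.10.1 against GRCm39 (annotation release M29) after FastQC 0.11.5, and the deposited signal is a gene-level count divided by the size factors of DESeq2 1.36.0, here called normalized count. Whole reads were not recovered from it: only 53.3 to 71.5% of low values in choroid and 44.8 to 68.8% in retina came out whole (tolerance 0.1), so no count test was run, read totals are estimates from the step between low values, and 3 reads correspond to normalized counts of 2.7 to 3.56 for choroids and of 2.24 to 3.38 for retinas, which covers counting error only.

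Symbols came from GENCODE release M39 (53700 of 54307 gene identifiers matched, 607 did not). Testing took genes whose mean reached 1, on log2(normalized count + 1) with limma 3.58.1 (trend, R 4.3.3), with the 4 groups of a tissue in 1 fit (8 for choroid against retina), no covariates and Benjamini-Hochberg adjustment over all genes tested, called at 0.05. The authors' covariates, sex and a neuronal share, are not in the labels, and scores of marker genes replaced them as alternatives. Single values were tested with two-sided exact permutation tests (smallest p of 0.00794 for 5 against 5). Replicates are separate mice. Choroid and retina were tied to a mouse by the number in their labels. Over 15687 genes, the deviations of the 20 pairs correlated at -0.197 to 0.354 (median 0.181), with 14 pairs above 0.1, and 11 of 20 choroids correlated best with their own retina. The difference in the effect of the diet between the tissues was tested on the difference within each mouse.

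The members and lists were chosen with earlier results of these data known. All 10 members were named in every comparison, at most 4 called genes per pathway list by lowest p, and, as most alike, the 3 genes of highest Pearson r among genes with a mean of at least 10. Of 96 markers, 95 matched, and Fcrls did not. Alternatives were the pseudocount (0.5, 5), the filter, scaling, robust moderation, score covariates, fits of only the groups compared and fits without each mouse. Another 2 were chosen after seeing the data: values relative to the endothelial score, and the difference in the effect of the diet without the block. Python 3.11.15 with pandas 2.3.3, numpy 2.4.6, scipy 1.17.1 and matplotlib 3.10.9 was used, and the fit was tested on simulated data.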

Additional observations from a re-analysis of the deposited data

Results flagged for a closer look

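Of 80 sets of 5 mice (10 members, 4 groups, 2 tissues), 6 held a mouse whose gap to the nearest of the others, divided by the range, exceeded Dixon's critical value of 0.71, where chance alone gives about 4. In Tgfbr2ΔEC -PLX choroids, Vegfb was 2561 normalized counts in mouse 10 and 1877 to 2047 in the other 4 (gap ratio 0.752). In Tgfbr2ΔEC +PLX choroids, Pgf was 857 in mouse 17 and 1283 to 1424 in the others (gap ratio 0.751), and without this mouse Pgf passed the test between the diets in Tgfbr2ΔEC mice (adjusted p = 0.0284, limma). In control +PLX choroids, Nrp2 was 9687 in mouse 11 and 7564 to 8059.9 in the others (gap ratio 0.766).

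In retina, Pgf was 44.5 in mouse 7 and 18.7 to 23.8 in the other Tgfbr2ΔEC -PLX mice (gap ratio 0.803), and Flt4 was 95.1 in mouse 6 and 139 to 149.6 in the others of the same group (gap ratio 0.81). Kdr was 2513 in the retina of mouse 20 and 3525 to 3849.5 in the other Tgfbr2ΔEC +PLX mice (gap ratio 0.757), in the group in which the choroids lay above the retinas. The mice differed from set to set, and no cause was tested.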

How the results depend on the processing

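Of 4590 differences of single members under the alternatives, 4342 kept their sign and side of the threshold, 17 newly passed and 35 no longer passed. Another 195 changed sign without passing in either fit, among them Kdr (-0.06) and Nrp2 (-0.11) between the diets in choroid relative to the endothelial score, and Kdr between the tissues with equal totals (-0.002). Vegfb between the diets in choroid changed sign relative to the endothelial score (-0.26), where passing means an unadjusted exact permutation p (0.0173), unlike the adjusted p of the other alternatives. For PLX5622 averaged over genotypes in choroid, the 4 called members became 0 with the endothelial score as covariate, and 3 to 6 without 1 mouse, with 6 without mouse 12. Vegfa was not called without mouse 1, 4, 5, 8, 9, 10, 11, 13, 14, 15, 16, 18, 19 or 20, with all genes above 0 (adjusted p = 0.0635) or with equal totals (adjusted p = 0.0552). In control mice the 1 called member became 2 with a minimum mean of 10, and 0 with all genes above 0, with the endothelial score as covariate and with only the groups compared, and 0 to 2 without 1 mouse. In Tgfbr2ΔEC mice 0 became 1 with only the groups compared, and 0 to 1 without 1 mouse (1 without mouse 5, 15 or 17). The causes were not tested, but with the endothelial score as covariate all called genes also fell from 1684 to 511, and the score nearly coincides with the diet.

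Choroid against retina gave 9 called members, also with the mouse as replicate block, and 9 to 10 without 1 mouse (10 without mouse 12 or 13, where Kdr passed). The block also left 0 members called for the difference in the effect of the diet, so it changed no call. Between choroid and retina, equal totals moved the median of all genes from -0.01 to -0.12. With the longest transcript as length, 8 of 10 members kept their place in the order of levels in each tissue, and Vegfa overlapped Nrp2 in choroid. Depth limits Vegfd in retina.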

Other observations

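Between the tissues, where 40.8% of all genes were higher in choroid, the pathway lists had these counts. Of the inhibitors 11 of 13 were higher and 2 lower in choroid (median log2 difference 3.70), of the co-receptors and semaphorin partners 13 of 17 and 4 (median 2.41), of the endothelial response genes 15 of 19 and 4 (median 1.85), of the ligand-processing genes 7 of 11 and 2 (median 1.78), and of the receptor phosphatases and adaptors 12 of 14 and 1 (median 1.00). Signalling proteins had 15 of 24 higher and 5 lower (median 0.35) and oxygen-sensing genes 7 of 14 and 3 (median 0.30). The median over all genes was -0.01, and nothing particular to a list was tested.

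Over the 20 retinas, Vegfb had a Pearson correlation of 0.69 with the photoreceptor score and of -0.72 with Flt1, Pgf one of -0.79 with Nrp2, and Flt1 one of 0.70 with Nrp2. The genes most like a member there were Adrm1 for Vegfb (0.95), Ttbk1 for Nrp2 (0.92), Epb41 for Flt1 (0.91), Kmt5c for Vegfa (0.80) and Ildr2 for Kdr (0.75). These libraries share scaling and tissue makeup, and the values are descriptions without a test.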
